A study of Homo sapiens with 9 samples.

Results

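The genes described here encode the kinases, adaptors, inhibitors and effectors of the ERK, JNK and p38 pathways. They are 38 genes chosen by name, 18 of the ERK arm and 20 of the JNK and p38 arm, and a probe was taken as theirs when the array's gene symbol was theirs. The array had 41 such probes for 35 of the genes, and 21 probes of 20 genes had a value on at least 1 array. NRAS, BRAF and MAP2K2 were not analysed here.

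The arrays compared RNA of HaCaT cells, an immortalized human keratinocyte line, after 1 h in an extremely low frequency electromagnetic field (ELF-EMF; 50 Hz, 1 mT) with RNA of sham-treated, non-exposed cells of the same line. Per the study's methods, both groups came from cells synchronized by serum starvation and then given serum again, seeded from 1 flask and kept in identical incubators. Each of the biological samples (A, B and C) was put on 3 arrays with 2 colours, namely 2 forward arrays, where the exposed RNA carried Cy5, and 1 dye swap, where it carried Cy3.

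Mitogen-activated protein kinase (MAPK) pathways are relays in which a MAP3K phosphorylates a MAP2K, which in turn phosphorylates a MAPK. In keratinocytes the ERK relay runs from growth factor receptors through Ras and Raf and is known for driving proliferation, while the JNK and p38 relays respond mainly to stress and cytokines and take part in differentiation and inflammation. These kinases are switched by phosphorylation. The arrays measured transcript amounts only, and in RNA from whole cultures a change in the number of cells that express a gene and a change in RNA per cell cannot be told apart.

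The deposited table was sparse, holding a log2 ratio of Cy5 over Cy3 for 1164 to 7250 of 30968 probes on an array, with array medians between -0.35 and 0.38. The second array of sample C stood apart. Across probes, its deposited ratios correlated with those of the dye swaps (r between 0.36 and 0.42) and not with those of the other forward arrays (r between -0.19 and 0.10). Its label places the exposed RNA in Cy5. If the dyes on it were the other way round, each of its values below would have the opposite sign. This cannot be settled from the table. Some results that rest on it are given without it or with its sign turned as well. The others are given as labelled only. The dye swaps correlated with each other at r between 0.38 and 0.45 before they were turned, and with the other forward arrays at r between -0.15 and 0.13. The other forward arrays correlated with each other at r between 0.06 and 0.48. This range overlaps that of the second array of sample C with them. Probes share array and dye in these correlations and are not independent replicates. Of 14 keratinocyte marker genes with a probe, 13 had a value, KRT5 and KRT14 among them, against 1 of 8 fibroblast markers (COL1A2), 1 of 6 melanocyte markers (TYR) and 2 of 5 leukocyte markers (CD14 and ITGAM). The table holds ratios, so the level of these markers could not be read. Below, every log2 ratio is exposed over non-exposed, with the dye swaps turned, unless it is called Cy5 over Cy3.

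Each arm had 10 genes with a value. In the ERK arm 10 of 16 probes (62.5%) had one and in the JNK and p38 arm 11 of 25 (44%), a difference that was not tested, against 40.6% of the 17315 probes of all named genes. Listed without any value were the ERK arm genes SOS1, which loads Ras with GTP, the RSK kinases RPS6KA2 and RPS6KA3, and the inhibitors SPRED1 and SPRY4. In the JNK and p38 arm they were the MAP3Ks MAP3K1, MAP3K4 and MAP3K7, the MAP2Ks MAP2K6 and MAP2K7, the p38 kinases MAPK11 and MAPK14, the JNK scaffolds MAPK8IP1 and MAPK8IP3, and the transcription factor ATF2. Why a cell of the table is empty is not given in the sources used here, so a missing value says nothing on whether the gene was expressed.

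The 51 values of the pathway genes were spread unevenly over the arrays. The second array of sample A held 17 of the 21 probes, the first array of sample C 12, and the dye swap of sample B and the second array of sample C 7 each, while the other 5 arrays held 1 or 2. Of the 20 genes, 14 were measured only on forward arrays and 6 also on a dye swap, so that for most of them the effect of the dye cannot be told apart from that of the exposure. For GRB2, SHC1, MAPK13 and MAPKAPK2 the only dye swap value was in sample B. That sample had no forward value for them, so their dye orientation coincides with sample. In at least 2 biological samples 10 genes had a value, 4 of the ERK arm and 6 of the JNK and p38 arm. MAP4K4 was the only one with both dye orientations in all 3 samples.

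**Figure D1:**
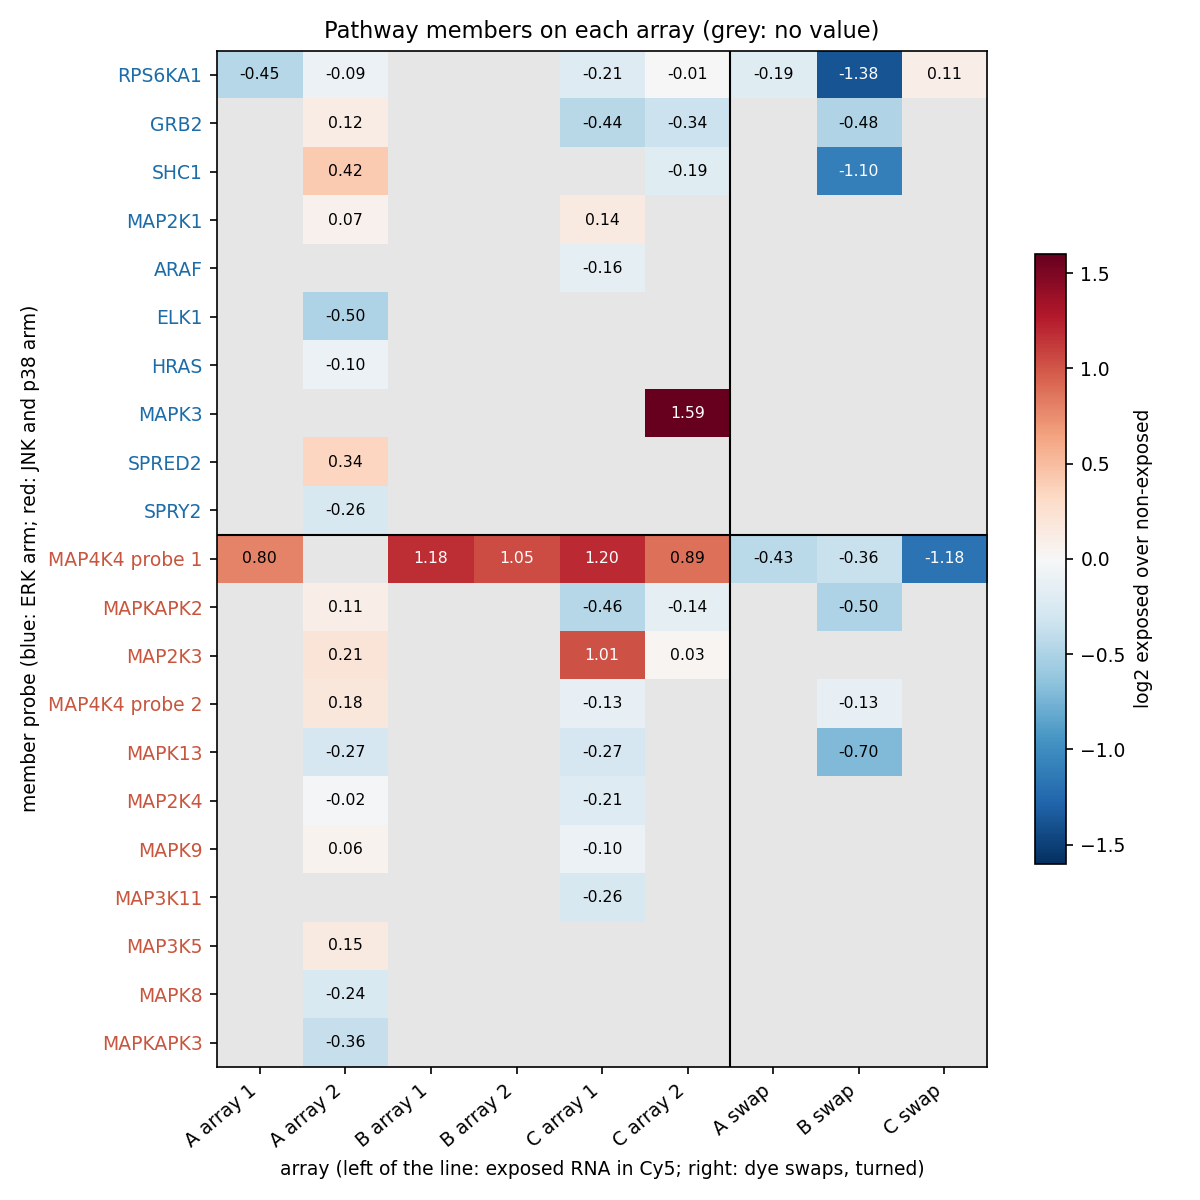
Log2 ratio of exposed over non-exposed RNA for each of the 21 probes with a value (rows, ERK arm in blue and JNK and p38 arm in red) on each of the 9 arrays (columns). Dye swaps, to the right of the line, are turned, and grey cells have no value. MAP4K4 probe 1 lies between 0.80 and 1.20 on the forward arrays and between -1.18 and -0.36 on the turned dye swaps, and the sparse columns of sample B hold little else.

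The adaptors at the top of the ERK pathway differed in sign between samples. SHC1 and GRB2 link activated growth factor receptors to Ras. SHC1 was at 0.42 on the second array of sample A, -1.10 on the dye swap of sample B and -0.19 on the second array of sample C. GRB2 was at 0.12 on the second array of sample A, at -0.48 on the dye swap of sample B, and at -0.44 and -0.34 on the arrays of sample C. As labelled, both genes were above 0 in sample A and below in samples B and C, and with the second array of sample C turned, sample C was at 0.19 for SHC1 and -0.05 for GRB2. Sample B was represented by its dye swap alone, whose turned median over all probes was -0.38. On that array SHC1 was at the 18.9th percentile and GRB2 at the 43.4th. Averaged over samples, the log2 ratio was -0.29 ± 0.77 (SD, n = 3; standard error 0.29, 95% confidence interval -0.98 to 0.41) and an adjusted p of 0.88 for SHC1. For GRB2 it was -0.25 ± 0.32 (SD, n = 3; standard error 0.19, interval -0.71 to 0.21; adjusted p = 0.88). Both spreads exceeded the means. SHC1 was at 0.12 without sample B and -0.34 without the second array of sample C, and GRB2 at -0.14 and -0.27. With that array turned they were at -0.16 and -0.14.

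The core relay of the ERK arm was measured thinly. The GTPase HRAS was measured on the second array of sample A only, at -0.10, and the Raf kinase ARAF on the first array of sample C only, at -0.16. MAP2K1, the kinase MEK1 that phosphorylates ERK, was at 0.07 on the second array of sample A and 0.14 on the first array of sample C, which gave 0.10 ± 0.051 (SD, n = 2; interval -0.43 to 0.64). MAP2K1 thus lay at the median of the sample A array, which was 0.07, and 0.29 above that of the sample C array. MAPK3, which is ERK1, had a single value of 1.59 on the second array of sample C, the highest among the 51 values as labelled. With the sign of that array turned it would be -1.59, the lowest of the 51. As labelled it is 1.29 above the median of that array and at its 95.9th percentile. It rests on 1 probe of the array that stood apart, has no dye swap and no replicate, and without that array MAPK3 has no value.

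Downstream of ERK, the kinase RPS6KA1 (RSK1), which ERK activates, was measured most often in its arm, on 7 arrays. In sample A it was at -0.45 and -0.09 on the forward arrays and at -0.19 on the dye swap. In sample B its only value was the dye swap, at -1.38, and in sample C it was at -0.21, -0.01 and 0.11, the last on the dye swap. As labelled, 6 of the 7 arrays were below 0, and apart from the dye swap of sample B these lay between -0.45 and -0.01. The mean over samples was -0.54 ± 0.74 (SD, n = 3; standard error 0.28, interval -1.22 to 0.14), and -0.12 without sample B. Limma gave an adjusted p of 0.88, and 0.68 at -0.55 without the second array of sample C. On its own array, the value of -1.38 in sample B was at the 11.9th percentile, since that dye swap had a median of -0.38 over all probes. ELK1, the transcription factor that ERK phosphorylates at serum response elements, was on the second array of sample A only, at -0.50, the 3.17th percentile of that array.

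The feedback inhibitors of the ERK arm had values of either sign on 1 array. SPRED2, which holds Raf inactive, was at 0.34 on the second array of sample A, at the 83.4th percentile. SPRY2, the Sprouty protein that dampens receptor signalling to Ras, was at -0.26 on the same array, at the 11.6th percentile. These values have no replicate.

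In the JNK and p38 arm, MAP4K4, a kinase upstream of JNK, was measured by 2 probes, and the first had a value on 8 arrays, more than any other pathway probe. Its Cy5 over Cy3 log2 ratio was 0.80 on the first array of sample A, 1.18 and 1.05 on the arrays of sample B, and 1.20 and 0.89 on those of sample C, all forward. On the dye swaps, where the exposed RNA was in Cy3, it was 0.43 in sample A, 0.36 in sample B and 1.18 in sample C. The probe was therefore brighter in Cy5 on 8 of 8 arrays, whichever RNA carried that dye, and the orientations overlapped (0.80 to 1.20 against 0.36 to 1.18). Turned to exposed over non-exposed, it was between the 83.3rd and 99.0th percentile of the forward arrays. On the turned dye swaps it was at the 15.5th, 50.9th and 2.77th percentile.

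Averaged over both orientations, MAP4K4 probe 1 was at 0.19 in sample A, 0.38 in sample B and -0.07 in sample C. The mean log2 ratio was 0.16 ± 0.22 (SD, n = 3; standard error 0.15, interval -0.14 to 0.47), with an adjusted p of 0.58 by limma over the 570 probes with both orientations in all samples. So 0 of 1 pathway probe in this fit passed (unadjusted p = 0.29), where 3.86% of all probes were lower, 0% were higher and the median probe was at -0.12. The dye effect of the probe, fitted apart from the exposure, was a log2 Cy5 over Cy3 of 0.84 (standard error 0.11, interval 0.61 to 1.08, adjusted p = 0.00021), the third highest of 570 probes, of which 7.19% passed as brighter in Cy5. It passed as well without the second array of sample C, at 0.85 (adjusted p = 0.00021), and with that array turned, at 0.89 (adjusted p = 3.3e-05). On the forward arrays alone, the exposure ratio was 0.98 ± 0.16 (SD, n = 3; adjusted p = 1.5e-05), the sixth highest of 570, of which 2.46% passed as higher. On the turned dye swaps alone it was -0.66 ± 0.46 (adjusted p = 0.10). When the dye swaps were not turned it was 0.82 (adjusted p = 0.0097), where 5.79% of the probes passed as higher.

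The second MAP4K4 probe gave ratios nearer to 0 than the first. It was at 0.18 on the second array of sample A, -0.13 on the turned dye swap of sample B and -0.13 on the first array of sample C. Its mean was -0.025 ± 0.18 (SD, n = 3; standard error 0.17, interval -0.44 to 0.39; adjusted p = 0.98 by limma). The probes shared 2 arrays. On the first array of sample C, probe 1 lay 1.32 above probe 2 in log2 Cy5 over Cy3, and only 7 of 284 pairs of probes of 1 gene on that array lay as far apart, against a median gap of 0.234. On the dye swap of sample B they were 0.226 apart, which 105 of 148 pairs reached. Where in the transcript each probe lies was not analysed here.

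**Figure D2:**
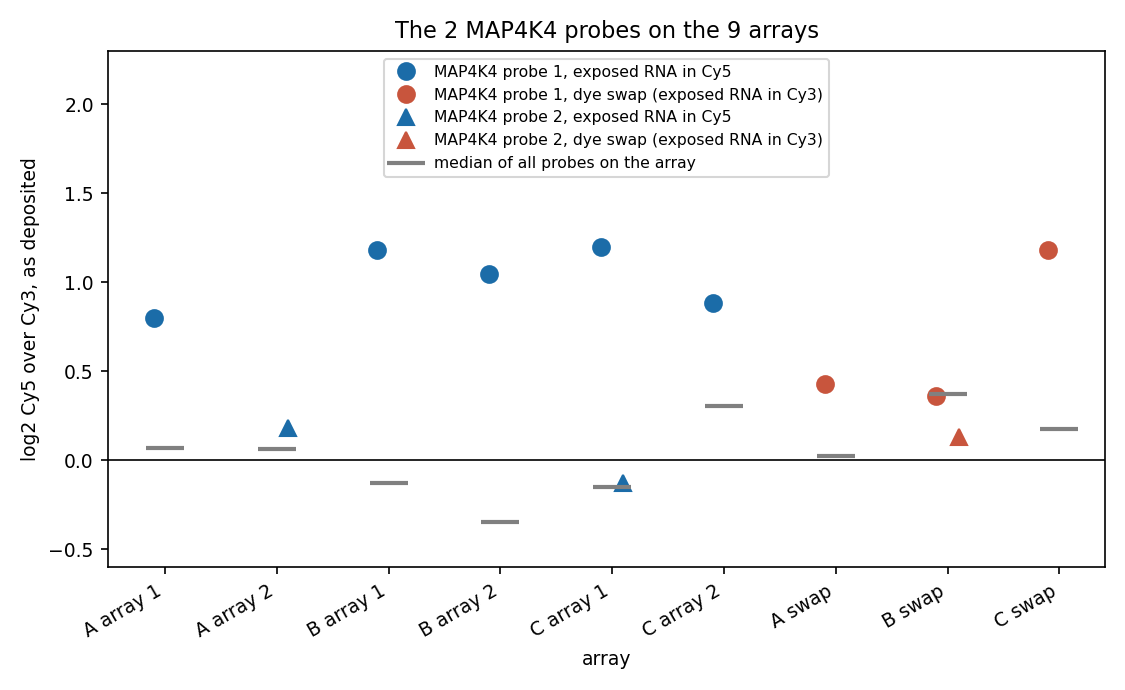
Deposited log2 ratio of Cy5 over Cy3 (vertical axis) of MAP4K4 probe 1 (circles) and probe 2 (triangles) on the 9 arrays (horizontal axis), with exposed RNA in Cy5 in blue and dye swaps in red. Grey bars are the median of all probes on the array. Every circle is above 0, in both colours, whereas the triangles lie between -0.13 and 0.18.

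Among the MAP3Ks and MAP2Ks of the JNK and p38 arm, MAP2K3 reached the largest value on an array. The MAP3Ks MAP3K5 (ASK1) and MAP3K11 (MLK3), which activate the JNK and p38 relays, had 1 value each, 0.15 on the second array of sample A and -0.26 on the first of sample C. MAP2K4 (MKK4), which phosphorylates JNK and can phosphorylate p38, was at -0.02 and -0.21 on these arrays, with a mean of -0.11 ± 0.13 (SD, n = 2; interval -0.66 to 0.43). MAP2K3 (MKK3), an activator of p38, was at 0.21 on the second array of sample A, and at 1.01 and 0.03 on the arrays of sample C. The arrays of sample C, of the same dye orientation by their labels, thus differed by 0.986, where the median probe differed by 0.334. With the second array turned, they differed by 1.04 and the median probe by 0.413. The mean of MAP2K3 was 0.37 ± 0.22 (SD, n = 2; interval -0.19 to 0.92; adjusted p = 0.88) with the pair averaged. It was 0.61 ± 0.57 (SD, n = 2; adjusted p = 0.68) without the second array of sample C. All its values came from forward arrays.

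The MAPKs of this arm lay close to 0 or below it. MAPK8 (JNK1) was measured once, at -0.24 on the second array of sample A. MAPK9 (JNK2) was at 0.06 on that array and -0.10 on the first array of sample C, with a mean of -0.021 ± 0.11 (SD, n = 2; interval -0.56 to 0.52). MAPK13, the p38 delta isoform found in epidermal keratinocytes, was at -0.27 on the second array of sample A, -0.70 on the dye swap of sample B and -0.27 on the first array of sample C. It was below 0 and below the array median on 3 of 3 arrays. The mean of MAPK13 was -0.41 ± 0.25 (SD, n = 3; standard error 0.18, interval -0.84 to 0.019), with an unadjusted p of 0.058 and an adjusted p of 0.88 by limma. MAPK13 had the smallest p of the pathway probes tested in at least 2 samples, and its values were 0.12 to 0.33 below the array medians.

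The p38 effector kinases were below 0 more often than above. MAPKAPK2 (MK2), which p38 activates and which stabilizes cytokine mRNAs, was at 0.11 on the second array of sample A, -0.50 on the dye swap of sample B, and -0.46 and -0.14 on the arrays of sample C. Its mean was -0.23 ± 0.31 (SD, n = 3; standard error 0.19, interval -0.68 to 0.22; adjusted p = 0.88). MAPKAPK3, its close relative, was at -0.36 on the second array of sample A, at the 6.58th percentile. MAPKAPK2 was above 0 in sample A and below in samples B and C, where sample C was at -0.16 with its second array turned. The value in sample B was at the 42.5th percentile of that dye swap, whose turned median over all probes was -0.38.

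Over all genes measured in at least 2 samples, no pathway member passed the test. Of 11 probes of 10 genes, 3 were above 0 and 8 below, with a median log2 ratio of -0.11 against -0.09 for all 5688 probes in this fit, and 5 were above and 6 below that median. By limma 0 of 11 passed (adjusted p between 0.88 and 0.99), and 0 had an unadjusted p under 0.05. Among all 5688 probes 0% passed, with 216 at an unadjusted p under 0.05. For 6 of the 11 probes the value of sample B was the dye swap alone, and 2 of 11 had both orientations within a sample. When the arrays were instead fitted one by one with a dye term, 7 of these probes could be tested. RPS6KA1 (-0.33, adjusted p = 0.18), MAPK13 (-0.49, adjusted p = 0.16) and SHC1 (-0.49, adjusted p = 0.17) had an unadjusted p under 0.05, as had 22.9% of all 3187 probes of that fit. For MAPK13 and SHC1 the only dye swap in this fit was that of sample B, which had no forward value for them. In the same fit 0 of 7 passed, against 4.89% of all probes. On forward arrays alone, 1 of the 11 passed, MAP4K4 probe 1, against 0.909% of 5060 probes passing as higher.

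**Figure D3:**
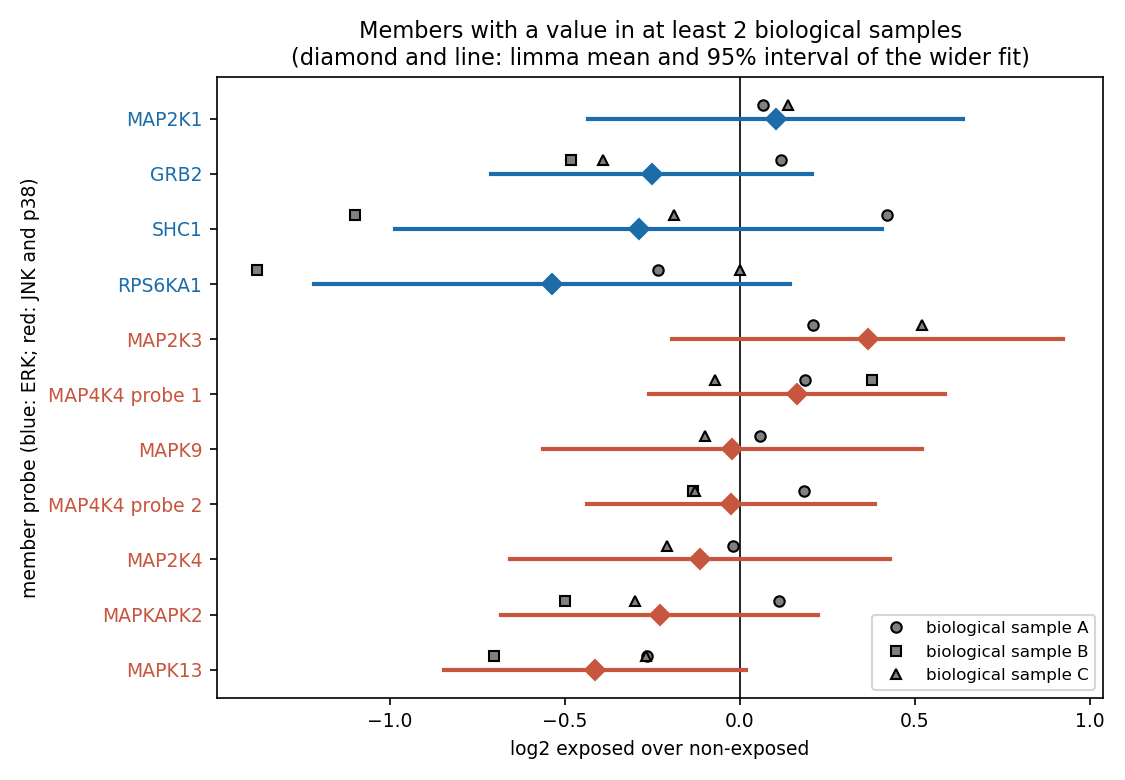
Log2 ratio of exposed over non-exposed RNA (horizontal axis) of the 11 pathway probes measured in at least 2 biological samples (ERK arm in blue, JNK and p38 arm in red). Small symbols are biological samples A, B and C, and the diamond and line are limma's mean and 95% confidence interval. Every interval crosses 0, and sample B is the lowest point for RPS6KA1, SHC1, GRB2, MAPKAPK2, MAPK13 and MAP4K4 probe 2. For these 6 probes sample B is its dye swap alone, whose turned median over all probes was -0.38. In the order named, they were at percentiles 11.9, 18.9, 43.4, 42.5, 32.2 and 67.2 of that array.

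Compared as groups, the medians of the arms lay apart in sample B and close together in samples A and C. The 4 ERK arm probes had a median log2 ratio of -0.27, with 1 above 0 and 3 below, and the 7 probes of the JNK and p38 arm one of -0.025, with 2 above and 5 below. By sample, the ERK arm had a median of 0.09 in A, -1.10 in B and -0.09 in C. The JNK and p38 arm had 0.11 in A, -0.32 in B and -0.13 in C. ERK minus JNK and p38 was thus -0.02, -0.78 and 0.03 in the 3 samples, with an SD of 0.46 over samples. In sample B, the ERK arm rested on 3 probes of the dye swap, whose turned median over all probes was -0.38, and it has no forward array with a value there. The JNK and p38 arm included MAP4K4 probe 1 there, at 0.38 averaged over both orientations. On the turned dye swap of sample B alone, the ERK arm was at -1.10 and the JNK and p38 arm at -0.43. Without sample B the median of the ERK arm was -0.0067 and that of the JNK and p38 arm -0.021. With the second array of sample C turned, the ERK arm was at 0.04 in that sample and at -0.15 over all samples, and the JNK and p38 arm stayed at -0.13 and -0.025. With each array centred on its median, the medians over all samples were -0.23 for the ERK arm and 0.020 for the JNK and p38 arm, where the sign of the latter flipped. No test was made of the difference between arms, since the arms were chosen by hand.

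On the second array of sample A and the first of sample C, which held the most values, the medians of the arms were close to each other and to the array median. On the second array of sample A, with a median of 0.07 over all probes, the 8 ERK arm values ran from -0.50 to 0.42 with a median of -0.01, and the 9 values of the JNK and p38 arm from -0.36 to 0.21 with a median of 0.06. Of the ERK arm 3 were above the array median, 4 below and 1 at it, and of the JNK and p38 arm 4 were above and 5 below. On the first array of sample C the medians were -0.18 over 4 values and -0.17 over 8, against -0.15 for the array. The next fullest arrays differed from this. On the turned dye swap of sample B, the ERK arm was at -1.10 and the JNK and p38 arm at -0.43, against -0.38 for the array. On the second array of sample C, as labelled, the arms were at -0.10 and 0.03, against 0.31.

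By dye orientation, the JNK and p38 arm had 12 of 23 values above 0 on forward arrays and 0 of 6 on the turned dye swaps. The ERK arm had 6 of 17 above 0 on forward arrays and 1 of 5 on the turned dye swaps. The turned dye swaps of samples A, B and C had medians of -0.03, -0.38 and -0.18, so most probes on them were below 0. Relative to the array medians, the JNK and p38 arm had 12 forward values above and 11 below, and 2 and 4 on the dye swaps. The ERK arm had 5 above and 11 below on forward arrays, and 1 and 4 on the dye swaps. In both orientations together, 6 ERK arm values were above and 15 below, and 14 of the JNK and p38 arm above and 15 below. MAP4K4 supplied 7 of the 23 forward values and 4 of the 6 on dye swaps in the JNK and p38 arm, so most of the dye swap values are of 1 gene. The second array of sample C holds 4 of the forward ERK arm values and 3 of the JNK and p38 arm. Several values share a probe or an array, so no test was made of them.

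**Figure D4:**
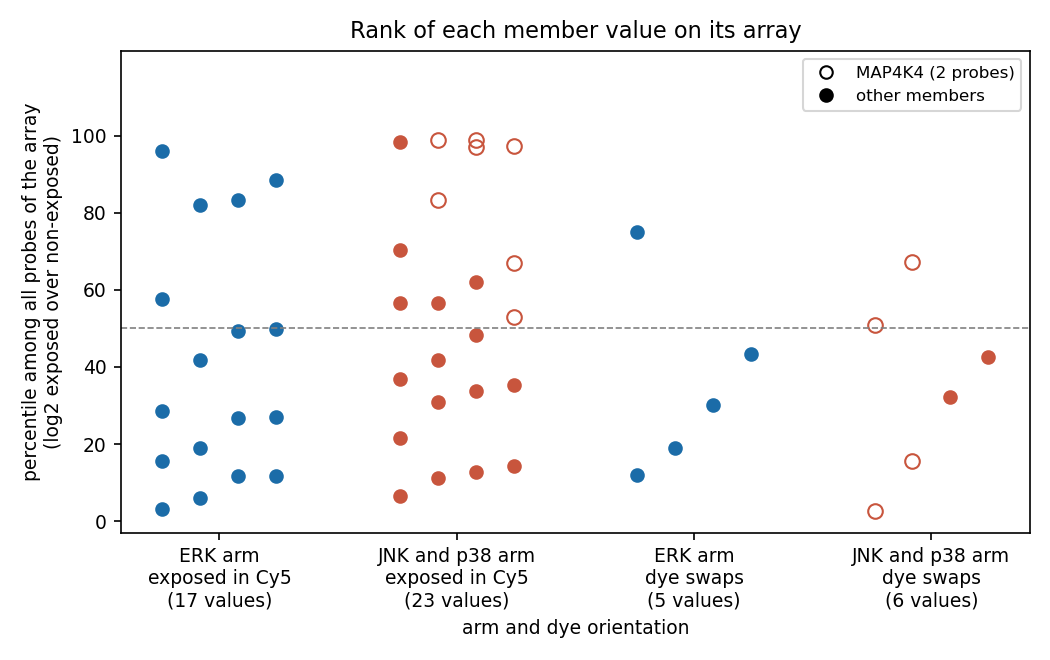
Percentile of each of the 51 values among all probes of its array (vertical axis), ranked by log2 exposed over non-exposed RNA, by arm and dye orientation (horizontal axis). Open circles are the 2 MAP4K4 probes and the dashed line is the array median. The highest values of the JNK and p38 arm on forward arrays are MAP4K4 and 1 MAP2K3 value at 98.5, and those of MAP4K4 probe 1 on the turned dye swaps are at 50.9 or lower.

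In the wider pathway no gene passed the test either, where 0% of all 5688 probes passed over at least 2 samples. Of 22 phosphatases that act on MAPKs, 11 were tested over at least 2 samples, 3 above 0 and 8 below. Their median was -0.13, against -0.09 for all 5688 probes, so a majority below 0 is common to most probes. DUSP14, a dual-specificity phosphatase, was at -0.39 ± 0.40 (SD, n = 3) and PPP2R1A, the scaffold of PP2A, at -0.36 ± 0.33 (SD, n = 2), both with an adjusted p of 0.88. Of 37 other regulators of the ERK pathway, 12 were tested, 5 above 0 and 7 below, with a median of -0.09. PTPN11 (SHP2), a phosphatase that promotes Ras activation, was at 0.0037 ± 0.28, and MKNK2, a kinase that ERK activates and that phosphorylates eIF4E, at -0.0019 ± 0.27 (SD, n = 3; adjusted p = 0.997 for both, with both dye orientations). On forward arrays PTPN11 was at 0.23 and on the turned dye swaps at -0.22, and MKNK2 at 0.15 and -0.15. Each mean is the average of these values, so a mean near 0 already implies orientations of opposite sign or both near 0. No dye effect is given here for either gene.

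Of 37 other regulators of the JNK and p38 pathways, 19 probes of 16 genes were tested, 5 above 0 and 14 below. Their median was -0.16, against -0.09 for all 5688 probes, a difference that was not tested. GSTP1, which binds and restrains JNK, was at -0.23 ± 0.17 (SD, n = 3; adjusted p = 0.40), with -0.16 on forward arrays and -0.30 on the turned dye swaps. TAOK3, a kinase related to MAP3Ks of the p38 pathway, was at -0.014 ± 0.13 (SD, n = 3; adjusted p = 0.98). CDC42, which acts upstream of JNK, was named after its value was seen, as the only gene of these lists with an unadjusted p under 0.05 over at least 2 samples, at -0.62 ± 0.56 (SD, n = 3; unadjusted p = 0.038, adjusted p = 0.88).

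Transcripts that MAPK signalling is known to induce were the best covered of the lists, with a value for 25 of 26 genes with a probe. Of the 27 listed, 22 probes of 20 genes were tested over at least 2 samples, 8 above 0 and 14 below, with a median of -0.10 against -0.09 for all probes. FOSB, an immediate early transcription factor, was at -0.30 ± 0.29 (SD, n = 3; adjusted p = 0.24), from 0.03 on forward arrays and -0.63 on the turned dye swaps. JUND, a component of AP-1, was at -0.23 ± 0.19 (SD, n = 3; adjusted p = 0.41), at -0.14 and -0.31. None of these 4 lists had a gene past the threshold of limma, in the fit of probes with both orientations or in that of at least 2 samples. Among all probes, 0% of 5688 passed in the latter fit. In the former, 3.86% of 570 passed as lower and 0% as higher, and each list had only 1 to 3 probes tested. The absence of a pass therefore does not set these lists apart from other probes.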

How the data were processed

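RNA of exposed and non-exposed HaCaT cells was amplified, labelled with Cy3 or Cy5 and hybridized on Phalanx Human OneArray slides. The authors normalized the scans in ScanArray Express, by a method not given in the sources used here, and deposited 1 value per probe and array. These deposited values were taken as the log2 of Cy5 over Cy3, since 86.6% to 99.1% of them gave a linear ratio with whole thousandths (within 0.05 of a thousandth) when read as log2, against at most 10.3% when read as natural log or log10. Direction came from the dyes in the labels, and the dye swaps were turned. Centring is unknown and the array medians were kept. As the table gives no intensities, brightness against background is unknown and does not enter the stated precision.

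Of 30968 probes, 17397 had 1 gene symbol and 13571 none, and 99.5% of the symbols were matched to the RefSeq gene table of GRCh38.p14. No pathway probe was named through a synonym. Per biological sample, forward arrays (exposed RNA in Cy5) were averaged and then averaged with the turned dye swap. Limma 3.58.1 under R 4.3.3 was run on these values (lmFit, eBayes, two-sided, Benjamini-Hochberg over all probes of the fit, threshold 0.05), over 570 probes with both orientations in all 3 samples and over 5688 probes with a value in at least 2 samples, where a sample with 1 orientation is not dye-balanced. For the dye effect, all 9 arrays entered a model of dye and exposure, the sample being a random block (consensus correlation -0.078). The fits were tested on simulated data.

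P-values of the main fits rest on the spread between these 3 biological samples, which limma moderates over probes. Over the 570 probes, and on forward arrays alone, limma used a spread pooled over all probes in place of each probe's own. In the former, the standard error was 0.15 for MAP4K4 probe 1, PTPN11 and FOSB alike. With each probe's own spread, 0 of 570 passed. In the fits with a dye term, single arrays were the units, with the sample as a block. The members, their arms and the other lists were chosen with earlier results of these data known. Every member with a value is named, and of each other list the 2 genes with the smallest p among the 570 probes, or among the 5688 where under 2 genes of the list were in the former. Alternatives were the dye swaps unturned, each orientation alone, a dye term, 9 arrays as replicates, median centring, quantile normalization, other filters, each probe's own spread, and leaving out samples or arrays. Leaving out and turning the second array of sample C were chosen after seeing the data. Background correction, a filter on dim probes and the slide as a block could not be tried.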

Additional observations from a re-analysis of the deposited data

Results flagged for a closer look

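MAP4K4 probe 1 gave opposite exposure ratios in the dye orientations, 0.98 on forward arrays and -0.66 on the turned dye swaps. The difference was tested through the dye effect of the probe. This effect adds to the forward ratio and subtracts from the turned one, so it is smaller than the gap between them. It was a log2 Cy5 over Cy3 of 0.84 (standard error 0.11, adjusted p = 0.00021 by limma over 570 probes). Of 570 probes, 41 passed as brighter in Cy5 and 2 as brighter in Cy3. The dye effect stayed past the threshold with each array centred on its median, at 0.77 (adjusted p = 0.013), and without sample A, B or C, between 0.71 and 0.92.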

How the results depend on the processing

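In 137 values of the 11 probes under alternatives, 118 kept their direction and side of the threshold, 17 reversed and 2 passed the threshold, and MAP2K1, MAP2K3 and MAP2K4, with few alternatives, had no reversal. Part of the 118 was fixed in advance. Each probe's own spread cannot move a mean, and leaving the dye swaps as deposited cannot move a probe without a dye swap value. MAP2K1 stayed at 0.10 in every alternative that changed only dye swaps, sample B or the second array of sample C, where it has no value. With the dye swaps left as deposited, MAP4K4 probe 2 was at 0.064, MAPKAPK2 at 0.10, RPS6KA1 at 0.41, MAPK13 at 0.057, GRB2 at 0.069 and SHC1 at 0.44. With exposed RNA in Cy5 alone, SHC1 was at 0.12 and MAP4K4 probe 2 at 0.029, and with dye swaps alone MAP4K4 probe 1 was at -0.66. Centring put MAP4K4 probe 2 at 0.13 and MAPK9 at 0.020, and quantile normalization MAP4K4 probe 2 at 0.036. Without the first array with exposed RNA in Cy5 of each sample, MAP4K4 probe 1 was at -0.077 and probe 2 at 0.025. Leaving out a sample gave -0.13 to 0.029 for MAP4K4 probe 2 and -0.64 to 0.12 for SHC1.

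The number of pathway probes passing was 1 in place of 0 with the dye swaps as deposited among 570 probes, and with exposed RNA in Cy5 alone in both fits. Over all 570 probes 22 passed. This became 10 with dye swaps alone, 9 with a dye term, 0 with 9 arrays as replicates, 10 with quantile normalization, 14 of the probes on all 9 arrays, 0 over probes in at least 2 samples, 0 with each probe's own spread, 3 to 10 without a sample, 0 without the first arrays in Cy5, 40 without the second array of sample C and 48 with it turned. Over 5688 probes 0 passed, against 56 with exposed RNA in Cy5 alone, 156 with a dye term, 3 with own spread and 0 to 23 without a sample. The median of the JNK and p38 arm, -0.025 over 7 probes, was -0.31 over the 4 left without the second arrays in Cy5. It ran from -0.26 (without sample A, 4 probes) to -0.021 (without sample B, 7 probes). That of the ERK arm, -0.27 over 4 probes, moved by less than its SD over samples. It was at -0.52 over the 2 left without the second arrays in Cy5, and at 0.26 with the dye swaps as deposited. Without a sample, it ran from -0.64 (without A, 3 probes) to -0.0067 (without B, 4 probes). Where probes dropped out, the medians are of different sets of probes. The cause was not tested. The fits were paired, since each ratio already sets exposed against non-exposed RNA on 1 array.

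These data are limited by missing values, which leave 10 of 21 probes on 1 array, and by the dye. For 14 genes the dye cannot be told apart from the exposure. For GRB2, SHC1, MAPK13 and MAPKAPK2 the dye orientation coincides with sample.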
